A study of Drosophila melanogaster with 15 samples.

Results

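Eye imaginal discs of Drosophila melanogaster larvae that expressed an activated form of the fly's own growth regulator Yorkie (Yki S168A) were compared directly with discs that expressed the Yap protein of Monosiga, a choanoflagellate. The comparison took 6 of the 15 libraries of the series, 3 per group, and the libraries were chosen by their labels alone. Eye discs are epithelial sacs of the larva that turn into the eyes of the fly. Yki S168A larvae carried GMR-Gal4, UAS-eGFP and UAS-DrosophilaYKI S168A, and were labelled as having differentiation defects with ectopic proliferation graded as middle. Monosiga Yap larvae carried GMR-Gal4, UAS-eGFP and UAS-MonosigaYAP, and were labelled with differentiation defects alone. Both groups therefore shared the driver and the eGFP transgene. GMR-Gal4 acts in cells behind the morphogenetic furrow, the front at which eye cells start to differentiate. The GFP-positive GMR domain was cut out of 25 to 30 third-instar discs for each library, so each value is a mean over pooled discs that hold several cell types. The other 3 groups of the series were Monosiga Yap joined to a human TEAD-binding domain (Monosiga Yap-TBD), Trichoplax Yap S81A and an eGFP control, with 3 libraries each, all on the same driver with the same eGFP transgene.

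Yki and Yap are co-activators at the end of the Hippo pathway. The kinase Warts phosphorylates Yki and keeps it in the cytoplasm, and the S168A change removes a serine that Warts phosphorylates. Unphosphorylated Yki enters the nucleus, binds DNA through the TEAD-family factor Scalloped, and raises genes for cell division, for survival and for inhibitors of its own pathway. In the eye disc, cells behind the furrow normally leave the cell cycle and become photoreceptors, cone cells and pigment cells in sequence. A direct comparison of these genotypes asks how the targets and the differentiation genes stand under the fly protein against those under its single-celled relative's protein.

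Levels are given in FPKM, fragments per kilobase of transcript and per mega (M) fragments mapped, as the authors deposited them. Estimated from the steps between low values, the depth was 13.9, 15.2 and 20.6 M fragments in Yki S168A libraries and 17.2, 16.0 and 16.3 M fragments in Monosiga Yap libraries. With the lowest of these depths, a transcript of 2000 bases needs about 27.8 fragments to reach 1 FPKM. Correlations of log2(FPKM + 1) between libraries were 0.946 to 0.961 within Yki S168A and 0.931 to 0.955 within Monosiga Yap, so the Monosiga Yap libraries spread more. Across groups they ran between 0.909 and 0.949, which overlaps the range within groups. The retinal genes so and eya, which mark eye tissue, stood between 73.4 and 164 FPKM in all 6 libraries. The labels give no sex, and roX1, a noncoding RNA of the male X chromosome, was listed at 59.9, 56.5 and 45.1 FPKM in Yki S168A libraries and at 197, 82.0 and 18.7 FPKM in Monosiga Yap libraries. Of 14 dosage and sex genes tested, 0 were called by limma, where 11.7% of all genes were, and 1 had an unadjusted p under 0.05. The labels name separate RNA extractions but not separate crosses, so the p-values measure the spread between these samples.

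The transcript of the fly construct was visible in its own group. yki (dm3 2R:19953498-19956008) stood at 696, 706 and 408 FPKM in Yki S168A libraries, against 87.2, 70.8 and 81.4 FPKM in Monosiga Yap libraries. The groups did not overlap, and Yki S168A replicate 3 was the lowest of its group. This is a ratio of 7.56 between mean levels (log2 fold change 2.86, SE 0.17, limma adjusted p = 2.99e-07), and it adds the construct to the endogenous gene. The Monosiga reading frame is not among the fly genes of the deposited table, so the level of that construct was not measured, and a difference in the amount of protein cannot be told apart from a difference between the proteins.

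Genes were called at a limma adjusted p under 0.05, and fold changes are Yki S168A minus Monosiga Yap on the log2(FPKM + 1) scale. Of 9213 genes tested, 1075 were called (11.7%), of which 476 were higher (5.17%) and 599 lower (6.5%) in Yki S168A. Of these, 119 of the higher and 350 of the lower genes differed at least 2-fold in mean FPKM. The median log2 fold change over all genes tested was 0.03. The 3 libraries of each group did not overlap for 2324 of the 9213 genes (25.2%), so a lack of overlap alone was common. With Yki S168A replicate 3 left out, 670 genes were called, 281 higher and 389 lower. The higher calls alone numbered 286 without Monosiga Yap replicate 1 and 791 without Monosiga Yap replicate 3.

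**Figure D1:**
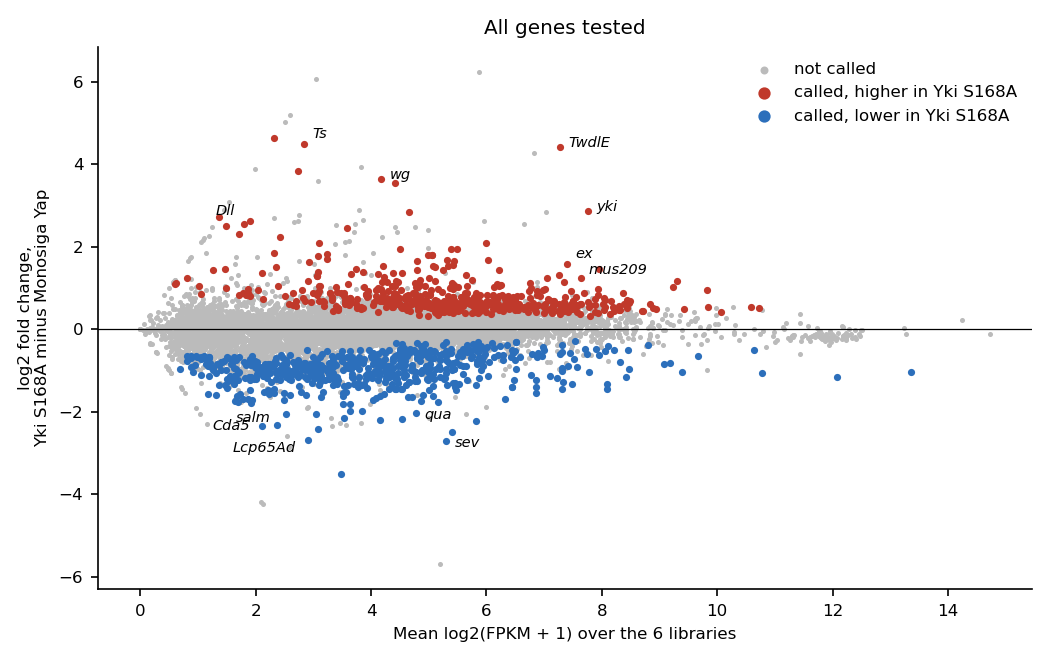
Each point is a gene tested, with its mean log2(FPKM + 1) over the 6 libraries on the x axis and its log2 fold change (Yki S168A minus Monosiga Yap) on the y axis. Of the 9213 genes, 476 were called higher (red) and 599 lower (blue), and Ts, TwdlE, wg and yki are among the highest called points while sev is among the lowest.

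Known targets of Yki were called higher under the fly protein or were not called, and none of them was called lower in the main fit. Of 15 members tested of 17 matched, 8 were called higher against a background of 5.17%, with a list median of 0.71 against 0.03 over all genes. The highest was wg (dm3 2L:7307161-7316255), which encodes the Wnt ligand Wingless. It stood at 67.5, 39.5 and 93.3 FPKM in Yki S168A libraries and at 4.11, 3.29 and 5.07 FPKM in Monosiga Yap libraries. Yki S168A replicate 2 was the lowest of its group and still above every Monosiga Yap library. The ratio of means was 16.1 (log2 fold change 3.65, SE 0.36, limma adjusted p = 5.31e-05).

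Targets that feed back on the pathway showed the same direction. expanded (ex, dm3 2L:431253-448701), which encodes an upstream activator of Hippo signalling, had 339, 269 and 268 FPKM in Yki S168A libraries, against 114, 90.0 and 88.6 FPKM in Monosiga Yap libraries. Its ratio of means was 3.0 (log2 fold change 1.57, SE 0.15, limma adjusted p = 2.12e-05), with no overlap between groups. kibra, deposited as CG33967, acts beside ex and had 82.1, 70.9 and 60.3 FPKM in Yki S168A libraries and 26.2, 23.6 and 15.8 FPKM in Monosiga Yap libraries. The lowest Yki S168A library stood above the highest Monosiga Yap library for kibra too (log2 fold change 1.68, SE 0.18, limma adjusted p = 7.2e-05). The gene ex lies across crq on the opposite strand, and since no strand setting is stated, reads from the shared stretch cannot be told apart.

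Targets that drive growth and survival were higher by smaller ratios. CycE, the cyclin that starts S phase, had 29.4, 32.1 and 35.5 FPKM in Yki S168A libraries and 15.3, 9.31 and 12.1 FPKM in Monosiga Yap libraries, a ratio of 2.64 (limma adjusted p = 0.000398). E2f, the E2F1 transcription factor of the G1/S switch, had 113, 112 and 102 FPKM in Yki S168A libraries and 59.7, 40.1 and 56.0 FPKM in Monosiga Yap libraries, a ratio of 2.10 (limma adjusted p = 0.000637). In both genes the groups were well apart. The caspase inhibitor Diap1, encoded by th (dm3 3L:16031505-16043755), had 460, 424 and 447 FPKM in Yki S168A libraries and 281, 257 and 273 FPKM in Monosiga Yap libraries, a ratio of 1.64 with little spread (limma adjusted p = 7.2e-05). dally, a cell surface proteoglycan that binds Dpp and Wingless, averaged 158 ± 11 FPKM in Yki S168A libraries and 72.8 ± 9.62 FPKM in Monosiga Yap libraries (SD, n = 3 each), a ratio of 2.17 (limma adjusted p = 0.000372).

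The EGFR ligand vn was near the threshold. It stood at 4.57, 4.88 and 4.4 FPKM in Yki S168A libraries and at 2.33, 2.90 and 2.0 FPKM in Monosiga Yap libraries. The libraries did not overlap, and the limma adjusted p was 0.0442. The call ended in 10 of the 17 alternatives, among them the omission of Yki S168A replicate 1, 2 or 3 (limma adjusted p = 0.0942, 0.12 and 0.0981) or of Monosiga Yap replicate 1 or 3 (limma adjusted p = 0.112 and 0.1). The 7 members that were not called had log2 fold changes between -0.23 and 0.36. Among them were Mer, an upstream pathway component, at 23.8, 27.5 and 28.4 FPKM in Yki S168A libraries and 23.7, 23.1 and 25.7 FPKM in Monosiga Yap libraries. fj, a Golgi kinase, was another, at 39.3, 30.7 and 35.3 FPKM in Yki S168A libraries and 45.9, 39.3 and 38.3 FPKM in Monosiga Yap libraries. Under array weights fj was called lower (limma adjusted p = 0.00443), and the members crb and Ser were called higher (limma adjusted p = 0.00264 and 0.0265). dm, the fly Myc gene, averaged 58.9 ± 2.99 FPKM in Yki S168A libraries and 54.0 ± 7.51 FPKM in Monosiga Yap libraries (limma adjusted p = 0.616).

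**Figure D2:**
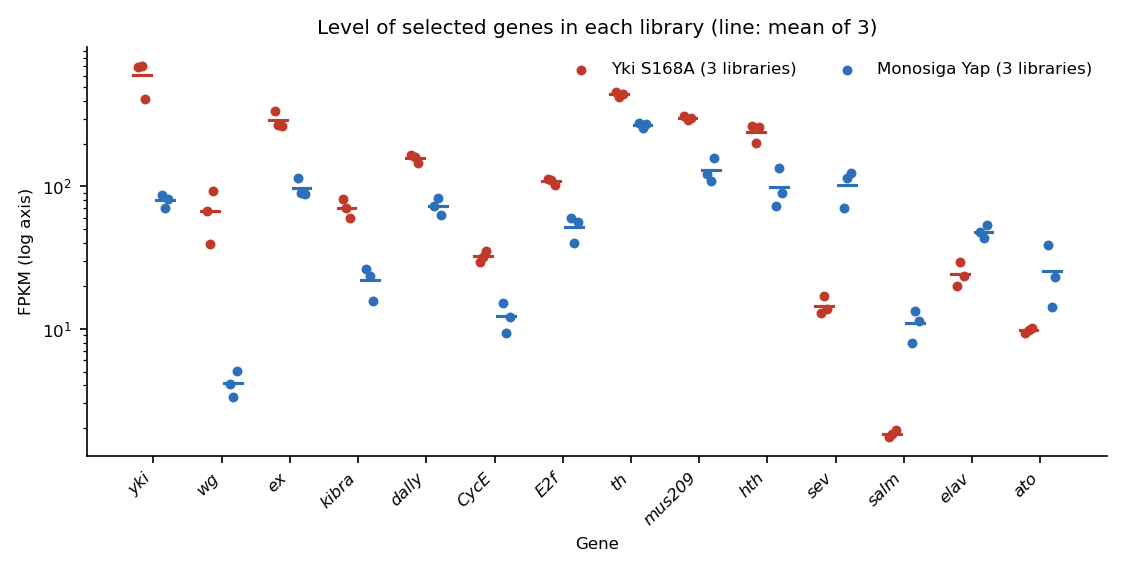
FPKM on a log axis for 14 genes, with 1 point per library, Yki S168A in red and Monosiga Yap in blue, and a line at the mean of 3 libraries. The libraries of the groups do not overlap for any of the 14 genes selected here, as is the case for 25.2% of all genes tested. Of the 14, yki, wg, ex, kibra, dally, CycE, E2f, th, mus209 and hth are higher and sev, salm, elav and ato lower in Yki S168A.

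Of the Hippo pathway components, 7 of 30 were called higher (23.3%, against 5.17% of all genes) and 0 lower, with a median of 0.10. The 7 include yki, whose level holds the construct, so its call follows from the design. Apart from yki, ex and kibra the called components were wts, ft, ds and d. wts encodes the Warts kinase and had 48.3, 43.5 and 36.9 FPKM in Yki S168A libraries, against 17.9, 17.7 and 19.0 FPKM in Monosiga Yap libraries, a ratio of 2.36 (log2 fold change 1.19, SE 0.14, limma adjusted p = 0.00018). The lowest Yki S168A library stood well above the highest Monosiga Yap library. The giant cadherins ds and ft, which bind each other across cells, had ratios of 1.76 and 1.57 between mean levels (limma adjusted p = 0.00316 and 0.00296). d, the myosin Dachs, had a ratio of 1.44 (limma adjusted p = 0.00873). The call of ft ended with only the 6 libraries in the fit (limma adjusted p = 0.0558), as did that of d (limma adjusted p = 0.0611), which also ended under the median-ratio and quantile scalings (limma adjusted p = 0.0686 and 0.0775).

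The core kinase hpo and the Warts partner mats were not called, with 38.7, 46.3 and 48.3 FPKM for hpo in Yki S168A libraries and 49.1, 44.9 and 63.2 FPKM in Monosiga Yap libraries. Under the median-ratio scaling both were called lower (limma adjusted p = 0.0432 for hpo and 0.0416 for mats). The DNA-binding partner of Yki, sd, stood at 97.2, 102 and 93.8 FPKM in Yki S168A libraries and at 84.7, 84.9 and 88.5 FPKM in Monosiga Yap libraries. Those libraries did not overlap, but the limma adjusted p was 0.407. lft, which binds the cadherins Dachsous and Fat inside the cell, averaged 151 ± 26.9 FPKM in Yki S168A libraries and 209.8 ± 33.9 FPKM in Monosiga Yap libraries (limma adjusted p = 0.055). The gene was called lower under 6 alternatives, including the omission of Yki S168A replicate 3 (limma adjusted p = 0.0412) or Monosiga Yap replicate 2 (limma adjusted p = 0.0202).

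Among 22 secreted signals tested of 24 matched, 7 were called higher (31.8%, against 5.17% of all genes) and 2 lower (9.09%, against 6.5%), with a median of 0.25. Besides wg and vn the higher ones were dpp, hh, Wnt6, Wnt10 and Pvf2. dpp, the BMP ligand of the fly (dm3 2L:2428454-2459609), had 24.6, 16.9 and 22.8 FPKM in Yki S168A libraries, against 7.87, 6.99 and 6.35 FPKM in Monosiga Yap libraries. The groups did not overlap and the ratio of means was 3.03 (log2 fold change 1.46, SE 0.15, limma adjusted p = 7.2e-05). hh, which photoreceptors secrete to move the furrow forward, had 45.1, 39.2 and 45 FPKM in Yki S168A libraries and 26.2, 17.2 and 18.2 FPKM in Monosiga Yap libraries (limma adjusted p = 0.00324).

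Wnt ligand genes were called in both directions. Wnt6 had 19.9, 17.5 and 32.2 FPKM in Yki S168A libraries and 6.19, 8.83 and 9.22 FPKM in Monosiga Yap libraries (limma adjusted p = 0.00538). Wnt10 was at 1.08, 1.86 and 0.924 FPKM in Yki S168A libraries, and was listed at 0, 0.123 and 0 FPKM in Monosiga Yap libraries (limma adjusted p = 0.00316). Wnt2 fell, with 4.15, 3.16 and 3.49 FPKM in Yki S168A libraries against 6.41, 11 and 8.59 FPKM in Monosiga Yap libraries (limma adjusted p = 0.0175). Wnt4 was not called, and its libraries overlapped. Without Yki S168A replicate 2 or 3, or Monosiga Yap replicate 2, the call of Wnt2 ended (limma adjusted p = 0.0627, 0.0579 and 0.0716).

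The Wnt genes that were higher lie side by side. In the order of the deposited dm3 coordinates on 2L, wg (7307161-7316255), Wnt6 (7340437-7352280), Wnt10 (7369540-7377530), ninaC (7377718-7384344) and CG5149 (7384486-7388248) follow each other with no other listed gene between them, and all 5 were called higher. ninaC, a myosin of the photoreceptor light response, was at 2.31, 1.58 and 1.25 FPKM in Yki S168A libraries and at 0.0822, 0.228 and 0.10 FPKM in Monosiga Yap libraries (limma adjusted p = 0.00204). Wnt4 (7255460-7277168), the next gene before wg apart from a small gene inside it that was listed at 0 in all 6 libraries, was not called. The stretch was chosen after its values were seen.

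Of the other secreted signals, Pvf2, a PDGF- and VEGF-related ligand, averaged 26.5 ± 5.82 FPKM in Yki S168A libraries and 12 ± 5.1 FPKM in Monosiga Yap libraries (limma adjusted p = 0.0182). Leaving out Yki S168A replicate 1 or 3 ended its call (limma adjusted p = 0.0741 and 0.0517). egr, the tumour necrosis factor of the fly, fell to 15.2, 14 and 10.4 FPKM in Yki S168A libraries, against 39.6, 31.2 and 30.4 FPKM in Monosiga Yap libraries, with no overlap (log2 fold change -1.30, SE 0.19, limma adjusted p = 0.000617). With only the 6 libraries in the fit, 4 secreted signals were called higher and 2 lower.

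Of 26 genes of Wingless and Dpp reception and feedback, 5 were called higher (19.2%, against 5.17% of all genes) and 1 lower (3.85%, against 6.5%), with a median of 0.24. Notum, an enzyme that strips Wingless of its lipid and is switched on by Wingless signalling, had 37.4, 22.1 and 23.9 FPKM in Yki S168A libraries and 2.49, 9.84 and 2.56 FPKM in Monosiga Yap libraries (ratio of means 5.60, limma adjusted p = 0.00139). nkd, another feedback inhibitor of Wingless, had 84.5, 80.2 and 76.8 FPKM in Yki S168A libraries and 27.5, 49.4 and 30.8 FPKM in Monosiga Yap libraries (limma adjusted p = 0.00116). Monosiga Yap replicate 2 was the highest of its group for both genes and still stood below every Yki S168A library.

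On the Dpp side, sog, which encodes a secreted Dpp-binding protein, averaged 48.5 ± 2.81 FPKM in Yki S168A libraries and 20.1 ± 2.16 FPKM in Monosiga Yap libraries (limma adjusted p = 0.000572). tkv, the Dpp receptor, had a ratio of 1.40 (limma adjusted p = 0.00458), a call that ended with only the 6 libraries in the fit (limma adjusted p = 0.0527). tkv averaged 118 FPKM in Yki S168A, 84.0 FPKM in Monosiga Yap and 102 FPKM in the eGFP control, between the groups compared. nmo, a kinase in both pathways, was lower at a limma adjusted p of 0.0491. That call ended in 10 alternatives, including the omission of each library except Monosiga Yap replicate 1, where the limma adjusted p was between 0.0685 and 0.143. The Wingless receptor gene fz3 and the beta-catenin gene arm were not called (limma adjusted p = 0.261 and 0.102). Under the median-ratio and quantile scalings arm was called lower (limma adjusted p = 0.0399 and 0.0121).

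DNA replication was the list with the most calls. Of 49 genes tested, 32 were called higher (65.3%, against 5.17% of all genes), 0 lower, and 48 had a positive fold change, with a median of 0.80. The 32 called genes spanned log2 fold changes of 0.50 to 4.49. mus209, the sliding clamp PCNA (dm3 2R:16149257-16150362), had 313, 293 and 305 FPKM in Yki S168A libraries, against 122, 110 and 158 FPKM in Monosiga Yap libraries, a ratio of 2.34 with no overlap (log2 fold change 1.23, SE 0.12, limma adjusted p = 4.02e-05). All 6 genes of the MCM2-7 helicase were called, with ratios of mean FPKM between 1.80 and 2.10 (limma adjusted p between 0.000157 and 0.00247). The 4 subunits of DNA polymerase alpha, which primes each new strand, had ratios between 2.23 and 2.58, and both subunits of ribonucleotide reductase had ratios between 1.72 and 2.10. Only 1 of the 4 GINS genes, partners of the helicase, was called. These complexes were picked after their values were seen.

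The widest ratio on the list was that of Ts, thymidylate synthase (dm3 2L:2968293-2969620). It had 33.0, 28.2 and 37.8 FPKM in Yki S168A libraries and 0.298, 0.0530 and 1.5 FPKM in Monosiga Yap libraries (log2 fold change 4.49, SE 0.25, limma adjusted p = 2.28e-07). The end of Ts overlaps that of the neuronal gene Rbp9 (2954762-2968434) on the other strand, and Rbp9 was lower, with 3.31, 5.18 and 3.62 FPKM in Yki S168A libraries against 11.9, 17.3 and 15.1 FPKM in Monosiga Yap libraries. Mcm10, a replication initiation factor, had 9.24, 11.2 and 11.4 FPKM in Yki S168A libraries and 1.33, 0.00653 and 5.27 FPKM in Monosiga Yap libraries, and it too overlaps a gene on the other strand, Ret. The values of Mcm10 ranged widely among Monosiga Yap libraries, and its call (limma adjusted p = 0.00557) ended with only the 6 libraries in the fit (limma adjusted p = 0.0701). The part of the overlaps in the values of Ts and Mcm10 was not tested. With only the 6 libraries in the fit, 21 replication genes were called higher.

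Of 56 mitotic genes tested, 18 were called higher (32.1%, against 5.17% of all genes) and 0 lower, with a median of 0.34 and log2 fold changes of 0.41 to 0.98 among those called. sub, a mitotic kinesin-like protein, had 22.9, 20.2 and 27.2 FPKM in Yki S168A libraries and 11.2, 9.77 and 13.3 FPKM in Monosiga Yap libraries, with no overlap (limma adjusted p = 0.0016). fzy, the Cdc20 activator of the anaphase-promoting complex, averaged 59.1 ± 3.26 FPKM in Yki S168A libraries and 30.2 ± 6.29 FPKM in Monosiga Yap libraries (limma adjusted p = 0.00105). The separase subunit thr and the centromere histone cid were called as well (limma adjusted p = 0.00873 and 0.0182). The count of higher genes was 10 without Yki S168A replicate 3 and 11 with only the 6 libraries in the fit. The call of cid ended without Yki S168A replicate 2 or 3 or Monosiga Yap replicate 2 (limma adjusted p = 0.0538, 0.0696 and 0.063).

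Of 30 ribosome biogenesis genes, 9 were called higher against a background of 5.17% and 0 lower (19 and 1 at an unadjusted limma p under 0.05), and 29 had a positive fold change, with a median of 0.49. nop5, a core protein of box C/D snoRNPs, had 201, 174 and 147 FPKM in Yki S168A libraries and 78.5, 107 and 129 FPKM in Monosiga Yap libraries (limma adjusted p = 0.0085). The count moved with single libraries: it was 4 without Yki S168A replicate 1, 5 without Yki S168A replicate 3, 4 without Monosiga Yap replicate 1 and 17 without Monosiga Yap replicate 3. With only the 6 libraries in the fit it was 1, and the limma adjusted p of nop5 was 0.0817. Of 80 cytosolic ribosomal protein genes tested, 0 were called higher (against 5.17% of all genes) and 1 lower (1.25%, against 6.5%). At an unadjusted limma p under 0.05 the counts were 0 and 8. The median of these genes was -0.18, with 4 positive values.

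**Figure D3:**
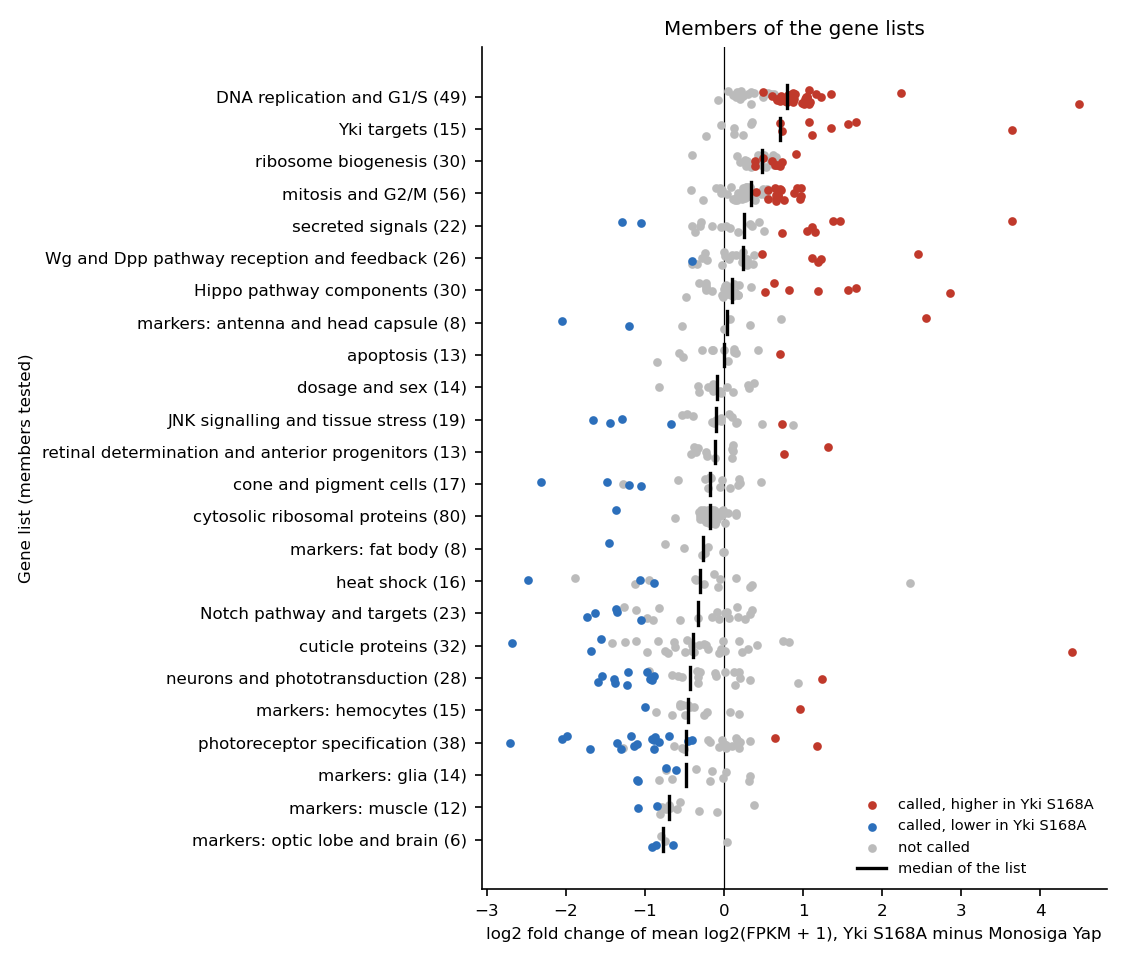
Each row is a gene list with the number of members tested, and each point is a member at its log2 fold change (Yki S168A minus Monosiga Yap), red where called higher, blue where called lower and grey where not called, with a black bar at the list median. The medians run from 0.80 for DNA replication to -0.77 for the optic lobe and brain markers, and no member of the replication, mitosis or ribosome biogenesis lists was called lower.

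The retinal determination network holds the transcription factors that commit cells to eye fate. Of its 13 members 2 were called higher (15.4%, against 5.17% of all genes) and 0 lower, with a median of -0.12, and the 15.4% called in either direction stood near the 11.7% of all genes. hth, a homeobox gene that keeps anterior cells undifferentiated (dm3 3R:6335569-6464386), had 265, 201 and 262 FPKM in Yki S168A libraries, against 72.7, 136 and 90.3 FPKM in Monosiga Yap libraries, with no overlap (log2 fold change 1.31, SE 0.20, limma adjusted p = 0.000849). Optix, a homeobox gene expressed ahead of the furrow, had 22.2, 26.1 and 24.5 FPKM in Yki S168A libraries and 12.3, 11.9 and 18.3 FPKM in Monosiga Yap libraries (limma adjusted p = 0.012). With Monosiga Yap replicate 1 left out, Optix was no longer called (limma adjusted p = 0.0549). eya, so, dac and tsh were not called, and their libraries overlapped between groups. toy and dan had limma adjusted p of 0.0506 and 0.0649, and both were called lower under the median-ratio scaling (limma adjusted p = 0.0494 and 0.0255) and the quantile scaling (limma adjusted p = 0.0136 and 0.0295). Without Monosiga Yap replicate 2 the limma adjusted p of dan was 0.00393.

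The homeobox genes Dll and lbl were among the widest differences. Dll, which specifies antenna and leg (dm3 2R:20702353-20722686), stood at 8.56, 5.07 and 9.47 FPKM in Yki S168A libraries and at 0.358, 0.614 and 0.361 FPKM in Monosiga Yap libraries (log2 fold change 2.56, SE 0.30, limma adjusted p = 0.000133). lbl, a homeobox gene known from muscle and heart, had 8.16, 2.84 and 7.31 FPKM in Yki S168A libraries and 0.0365, 0.269 and 0.227 FPKM in Monosiga Yap libraries (limma adjusted p = 0.000188). Every Yki S168A library was above every Monosiga Yap library for both genes, and replicate 2 was the lowest of its group. Of 8 antenna and head capsule markers tested, Dll was higher (12.5%, against 5.17% of all genes) and salm and ct were lower (25%, against 6.5%). The remaining 5, lab among them, were not called. The summed level of the 13 matched markers was 15.9 to 35.2 FPKM in Yki S168A libraries and 23.1 to 32.3 FPKM in Monosiga Yap libraries.

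Of 38 genes of photoreceptor specification tested, 17 were called lower (44.7%, against 6.5% of all genes) and 2 higher (5.26%, against 5.17%), with a median of -0.48. sev, the receptor that instructs the R7 photoreceptor (dm3 X:10965474-10980332), had 12.9, 16.9 and 13.8 FPKM in Yki S168A libraries, against 70.8, 114 and 124 FPKM in Monosiga Yap libraries. The mean in Monosiga Yap libraries was 7.07 times that in Yki S168A libraries, with no overlap (log2 fold change -2.71, SE 0.22, limma adjusted p = 8.18e-06). In bulk tissue, fewer cells of a type and less RNA per cell cannot be told apart. The count of lower genes was 11 without Yki S168A replicate 3 and 10 with only the 6 libraries in the fit.

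The spalt genes, zinc finger factors of the R3, R4, R7 and R8 photoreceptors, fell together. salm had 1.73, 1.81 and 1.94 FPKM in Yki S168A libraries and 7.92, 13.4 and 11.3 FPKM in Monosiga Yap libraries (limma adjusted p = 0.000103). Its neighbour salr had 4.86, 5.81 and 5.04 FPKM in Yki S168A libraries and 16.5, 24.1 and 32.7 FPKM in Monosiga Yap libraries (limma adjusted p = 0.000105). The Yki S168A libraries were close together and the Monosiga Yap libraries were spread and higher for both genes. ru, a rhomboid protease that releases the EGFR ligand, averaged 43.8 ± 8.24 FPKM in Yki S168A libraries and 146 ± 39.9 FPKM in Monosiga Yap libraries (limma adjusted p = 0.000279).

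ato, the proneural gene that founds the R8 photoreceptor, had 9.40, 9.79 and 10.2 FPKM in Yki S168A libraries and 38.5, 14.2 and 23.2 FPKM in Monosiga Yap libraries. The groups did not overlap, although the Monosiga Yap libraries differed widely, and the call (limma adjusted p = 0.0118) ended with only the 6 libraries in the fit (limma adjusted p = 0.0787). The members that were higher were the BarH genes, homeobox genes of the R1 and R6 photoreceptors. B-H1 had 36.3, 25.4 and 33.7 FPKM in Yki S168A libraries and 12, 16.3 and 12.2 FPKM in Monosiga Yap libraries (limma adjusted p = 0.000411). B-H2 had 31.9, 21.7 and 28.4 FPKM in Yki S168A libraries and 14.7, 21.4 and 15.4 FPKM in Monosiga Yap libraries (limma adjusted p = 0.0301). The gap for B-H2 was small, and its call ended under 7 alternatives, including the omission of Yki S168A replicate 1 or 3 or Monosiga Yap replicate 1 or 3 (limma adjusted p = 0.116, 0.101, 0.121 and 0.0702).

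Of 28 neuronal and phototransduction genes tested of 41 matched, 10 were called lower (35.7%, against 6.5% of all genes) and 1, ninaC, higher (3.57%, against 5.17%). The other 17 were not called, and the list had a median of -0.43 and 8 positive fold changes. elav, an RNA-binding protein that marks differentiated neurons (dm3 X:410878-417259), had 19.9, 29.4 and 23.6 FPKM in Yki S168A libraries, against 48.1, 43.1 and 53.4 FPKM in Monosiga Yap libraries, a level at 50.5% of the Monosiga Yap mean with no overlap (log2 fold change -0.97, SE 0.18, limma adjusted p = 0.00315). inaC, a photoreceptor protein kinase C, fell to 17.6, 19.1 and 12.7 FPKM in Yki S168A libraries, against 45.6, 56.4 and 51.7 FPKM in Monosiga Yap libraries (limma adjusted p = 4.67e-05). Appl, the fly amyloid precursor protein, averaged 68.7 ± 16.6 FPKM in Yki S168A libraries and 199 ± 23.2 FPKM in Monosiga Yap libraries (limma adjusted p = 0.0005). scrt, a neuronal zinc finger gene, and futsch, a microtubule-associated protein of axons, fell likewise (limma adjusted p = 0.00324 and 0.00277). elav overlaps arg on the opposite strand.

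**Figure D4:**
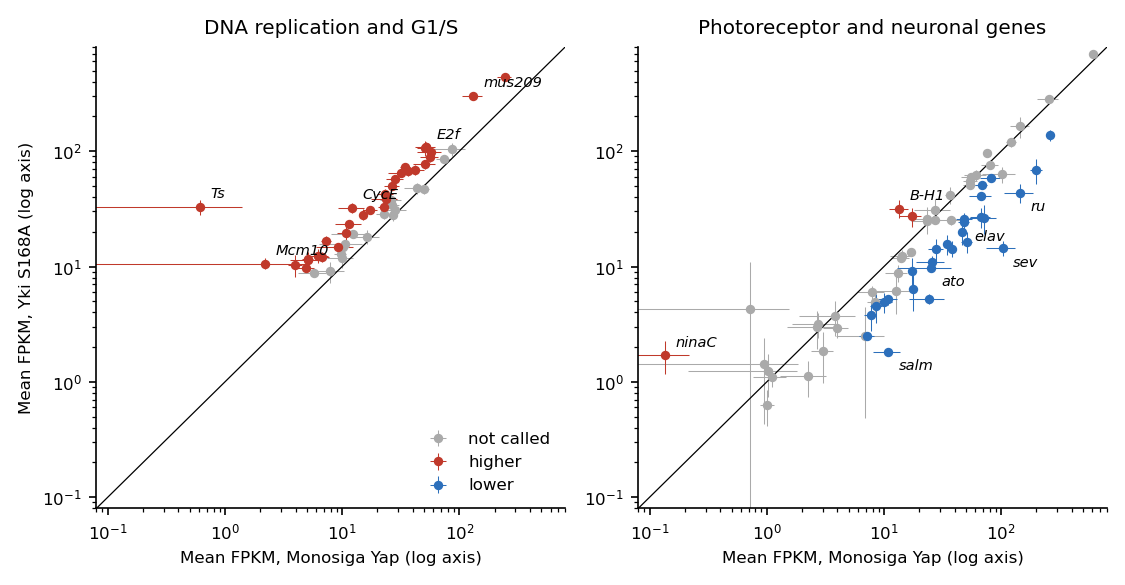
Mean FPKM in Yki S168A (y axis) against Monosiga Yap (x axis), both log axes, for the replication list on the left and the photoreceptor and neuronal lists on the right, with bars for SD of 3 libraries (cut at the frame where they reach 0) and a line of equal levels. Of the 49 replication genes 48 had a positive fold change and 32 were called higher, with dap just below the line, while the called eye genes lie below it except B-H1, B-H2 and ninaC.

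Of 17 cone and pigment cell genes, 4 were called lower (23.5%, against 6.5% of all genes) and 0 higher. sv, the Pax2 gene that cone cells need (dm3 4:1109444-1133943), had 1.08, 1.36 and 1.53 FPKM in Yki S168A libraries, against 8.68, 11.3 and 11.9 FPKM in Monosiga Yap libraries (log2 fold change -2.32, SE 0.19, limma adjusted p = 8.18e-06). hbs, an adhesion protein of the nephrin family, averaged 25.6 ± 1.61 FPKM in Yki S168A libraries and 73.4 ± 6.88 FPKM in Monosiga Yap libraries (limma adjusted p = 1.06e-05). ct and sns were called at limma adjusted p of 0.00463 and 0.011 and lost their calls with only the 6 libraries in the fit (limma adjusted p = 0.0626 and 0.0774). The call of sns also ended without Yki S168A replicate 3 (limma adjusted p = 0.0589). sns averaged 2.38 FPKM in Yki S168A, 5.88 FPKM in Monosiga Yap and 2.76 FPKM in the eGFP control, so the control stood nearer to Yki S168A.

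Of 23 Notch pathway genes, 5 were called lower (21.7%, against 6.5% of all genes) and 0 higher, with a median of -0.33. HLHmdelta, a repressor of the Enhancer of split complex that Notch switches on, had 16.6, 12.1 and 16.7 FPKM in Yki S168A libraries and 61.8, 52.7 and 43.5 FPKM in Monosiga Yap libraries, with no overlap (limma adjusted p = 0.000466). HLHmgamma, beside it in the complex, had 15.9, 14.8 and 24.9 FPKM in Yki S168A libraries and 82.6, 36.8 and 63.3 FPKM in Monosiga Yap libraries (limma adjusted p = 0.00587). The ligand genes Dl and Ser were not called (limma adjusted p = 0.54 and 0.365). m4 and HLHm7, also of the complex, lost their calls when single libraries were left out, with a highest limma adjusted p of 0.0683 for m4 and 0.12 for HLHm7, both without Monosiga Yap replicate 1. The count of lower genes was 3 without Yki S168A replicate 1 or 2 or Monosiga Yap replicate 1.

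Of 19 JNK and tissue stress genes, 4 were called lower (21.1%, against 6.5% of all genes) and 1, the filamin gene cher, was higher (5.26%, against 5.17%), with a median of -0.09. Mmp2, a matrix metalloprotease, had 178, 167 and 147 FPKM in Yki S168A libraries, against 420, 466 and 456 FPKM in Monosiga Yap libraries, with no overlap (log2 fold change -1.44, SE 0.21, limma adjusted p = 0.000567). Traf4, a signal adaptor, had 13.6, 17.7 and 11 FPKM in Yki S168A libraries and 61.9, 38.2 and 40.1 FPKM in Monosiga Yap libraries (limma adjusted p = 0.000412). wgn, a receptor of Eiger, was lower at a limma adjusted p of 0.00975. It averaged 5.82 FPKM in Yki S168A, 9.94 FPKM in Monosiga Yap and 7.26 FPKM in the eGFP control, between the groups compared. The ligand gene egr, also lower, averaged 13.2 FPKM in Yki S168A, 33.7 FPKM in Monosiga Yap and 32.4 FPKM in the eGFP control. The control thus stood beside Monosiga Yap for egr but not for wgn. With only the 6 libraries in the fit the calls of wgn and cher ended (limma adjusted p = 0.0869 and 0.0625).

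Of 13 apoptosis genes tested only th was called, where 11.7% of all genes were. Of 16 heat shock genes, 3 were called lower (18.8%, against 6.5% of all genes) and 0 higher: Hsp22, Hsp23 and DnaJ-1. Hsp22 had 42.5, 13.5 and 7.96 FPKM in Yki S168A libraries and 106, 176 and 50.9 FPKM in Monosiga Yap libraries (limma adjusted p = 0.017). It shares its deposited locus with Hsp67Bb, which stood the other way, at 13.6, 55.2 and 30.6 FPKM in Yki S168A libraries and at 2.92, 5.41 and 6.77 FPKM in Monosiga Yap libraries (limma adjusted p = 0.0978), so the split of reads between them is uncertain. Hsp67Bb averaged 33.2 FPKM in Yki S168A and 13.7 FPKM in the eGFP control, while the authors' natural log ratio between these groups was -0.441. No heat shock gene was called lower without Yki S168A replicate 3 or without Monosiga Yap replicate 2, and 1 was called without Monosiga Yap replicate 1 and 5 without Monosiga Yap replicate 3. Hsp22 itself lost its call without Yki S168A replicate 2 or 3 or Monosiga Yap replicate 1 or 2 (limma adjusted p = 0.0587, 0.0748, 0.055 and 0.0717).

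Among the genes of largest change that stand on no list named so far, several encode secreted or membrane proteins. TwdlE, a Tweedle cuticle protein (dm3 2L:7857957-7860838), had 899, 494 and 822 FPKM in Yki S168A libraries, against 53.9, 20.6 and 31.3 FPKM in Monosiga Yap libraries, with no overlap (log2 fold change 4.41, SE 0.31, limma adjusted p = 3.51e-06). lectin-28C, the neighbouring C-type lectin gene, had 101, 61.1 and 46.6 FPKM in Yki S168A libraries and 3.36, 17.5 and 9.30 FPKM in Monosiga Yap libraries (limma adjusted p = 0.0115), and without Yki S168A replicate 1 its limma adjusted p was 0.0507. Of the cuticle protein genes, 32 of 109 passed the filter on level. TwdlE was the only one called higher (3.12%, against 5.17% of all genes), while Lcp65Ad, Cpr31A and Cpr67Fa2 were lower (9.38%, against 6.5%). Both shares stood near those of all genes. With only the 6 libraries in the fit the call of Cpr67Fa2 ended (limma adjusted p = 0.0693).

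mthl8, a receptor gene of the methuselah family (dm3 3L:22947-26316), was at 5.94, 5.32 and 5.68 FPKM in Yki S168A libraries and was listed at 0 in all 3 Monosiga Yap libraries. It was also listed at 0 in the eGFP control and averaged 0.0188 FPKM in Monosiga Yap-TBD and 0.00868 FPKM in Trichoplax Yap S81A. Only the Yki S168A libraries held it above 1 FPKM, so it passed the filter on level through the group in which it is high, and its levels are given without a test. No ratio is given against a group at 0. out, a monocarboxylate transporter, had 85.8, 78.4 and 80.8 FPKM in Yki S168A libraries and 19.9, 23.9 and 17.8 FPKM in Monosiga Yap libraries (limma adjusted p = 1.76e-05). Fs, the activin-binding protein Follistatin, averaged 132 ± 20.6 FPKM in Yki S168A libraries and 30.4 ± 8.52 FPKM in Monosiga Yap libraries (limma adjusted p = 0.000412).

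The largest falls outside the eye lists were in structural and enzyme genes. Lcp65Ad, a larval cuticle protein, had 2.32, 1.7 and 1.88 FPKM in Yki S168A libraries and 26.4, 12.7 and 17.1 FPKM in Monosiga Yap libraries (limma adjusted p = 0.00119). qua, a villin-like actin bundler (dm3 2L:17486806-17497203), had 12.7, 12.4 and 12.5 FPKM in Yki S168A libraries, against 58.4, 53.7 and 51.5 FPKM in Monosiga Yap libraries. The spread of qua within each group was small beside the difference (log2 fold change -2.04, SE 0.12, limma adjusted p = 2.99e-07). Chit, a chitinase-like gene, had 10.9, 9.90 and 9.13 FPKM in Yki S168A libraries and 40.3, 50.5 and 55.4 FPKM in Monosiga Yap libraries (limma adjusted p = 0.000576). Ank2, an ankyrin of neurons, averaged 18.8 ± 4.47 FPKM in Yki S168A libraries and 65.7 ± 13.8 FPKM in Monosiga Yap libraries (limma adjusted p = 0.000561). Adgf-A, an adenosine deaminase, was lower at a limma adjusted p of 0.0146, which moved to between 0.0526 and 0.0717 without Yki S168A replicate 1 or 2 or Monosiga Yap replicate 1.

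Markers of cells other than the eye epithelium were counted in the same way. Of 14 glial markers 4 were called lower (28.6%, against 6.5% of all genes) and 0 higher, among them repo, the transcription factor of glia, at 16.5, 14.3 and 9.91 FPKM in Yki S168A libraries and 35.1, 29.3 and 25.2 FPKM in Monosiga Yap libraries (limma adjusted p = 0.00315). The summed level of all 14 was 442 to 493 FPKM in Yki S168A libraries and 493 to 540 FPKM in Monosiga Yap libraries, so the ranges met. The median of the glial markers was -0.48, and 11 of them had a negative fold change. Of 6 optic lobe and brain markers tested 3 were lower (50%, against 6.5% of all genes). The sum of all 14 matched was 10.4 to 19.0 FPKM in Yki S168A libraries and 20.9 to 40.1 FPKM in Monosiga Yap libraries. Without Yki S168A replicate 3, or with only the 6 libraries in the fit, none of these 3 markers was called. Without Monosiga Yap replicate 1 only 1 was. Tbh, among the 3, averaged 0.566 FPKM in Yki S168A, 1.44 FPKM in Monosiga Yap and 0.368 FPKM in the eGFP control. The call of Tbh ended under 9 alternatives.

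Of 15 hemocyte markers, 1 was higher and 1 lower (6.67% each, near the 5.17% and 6.5% of all genes), with sums of 393 to 439 FPKM in Yki S168A libraries and 294 to 427 FPKM in Monosiga Yap libraries. Their median was -0.45, with 12 negative fold changes and 3 positive. Of 8 fat body markers 1, Obp44a, was lower (12.5%, against 6.5% of all genes), with a median of -0.26 and 7 negative fold changes. The sum of 12 was 147 to 172 FPKM in Yki S168A libraries and 311 to 422 FPKM in Monosiga Yap libraries, with no overlap. Obp44a made up the larger share of that sum, with means of 95.6 ± 14.4 FPKM in Yki S168A libraries and 265 ± 56.2 FPKM in Monosiga Yap libraries. Of 12 muscle markers 2 were lower (16.7%, against 6.5% of all genes), htl, which is also on the glial list, and zfh1. The sums over 17 were 100.02 to 116 FPKM in Yki S168A libraries and 97.7 to 125 FPKM in Monosiga Yap libraries. Yet the median of the 12 tested was -0.69, and 11 of them had a negative fold change. The call of zfh1 ended with only the 6 libraries in the fit (limma adjusted p = 0.0572). The muscle myosin gene Mhc was under 1 FPKM in all 6 libraries, and no marker of any of these lists was at 0 in all 6. The fat body and optic lobe sums stood lower in Yki S168A libraries without overlap, and the glial sums lower with ranges that met. The medians of the glial, optic lobe, hemocyte, fat body and muscle lists were all negative, against 0.03 over all genes. The neuronal list had more lower than higher calls in the same libraries, and the markers' part in the neuronal and photoreceptor differences was not tested.

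The 3 groups outside the comparison place these levels. ex averaged 292 FPKM in Yki S168A, 97.4 FPKM in Monosiga Yap, 309 FPKM in Monosiga Yap-TBD, 271 FPKM in Trichoplax Yap S81A and 54.5 FPKM in the eGFP control. wg averaged 66.8 FPKM in Yki S168A, 4.16 FPKM in Monosiga Yap, 12.1 FPKM in Monosiga Yap-TBD, 121 FPKM in Trichoplax Yap S81A and 3.92 FPKM in the eGFP control. By these means Monosiga Yap-TBD was closer to Yki S168A for ex and closer to the eGFP control for wg, which was not tested. sev averaged 14.5 FPKM in Yki S168A, 103 FPKM in Monosiga Yap, 9.38 FPKM in Monosiga Yap-TBD, 15 FPKM in Trichoplax Yap S81A and 115 FPKM in the eGFP control.

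On the log2(FPKM + 1) scale the mean of the eGFP control stood nearer to Monosiga Yap for 987 of the 1075 called genes (91.8%) and nearer to Yki S168A for the other 88, of which 23 were higher and 65 lower in Yki S168A. Of the 8138 genes not called, the control stood nearer to Monosiga Yap for 65.6%. Monosiga Yap-TBD stood nearer to Yki S168A for 85.9% of called genes and 62.7% of those not called. For Trichoplax Yap S81A these shares were 92.1% and 63.5%. Of the 88 called genes for which the control stood nearer to Yki S168A, 3 are given as examples. Cda5, a chitin deacetylase-like gene, had 1.17, 1.11 and 0.544 FPKM in Yki S168A libraries and 9.28, 12.4 and 5.76 FPKM in Monosiga Yap libraries (limma adjusted p = 0.000103), while the eGFP control averaged 1.44 ± 0.588 FPKM (SD, n = 3). GstD1, a detoxifying glutathione transferase, was higher in Yki S168A, with 921, 813 and 844 FPKM in Yki S168A libraries against 412, 494 and 360 FPKM in Monosiga Yap libraries (limma adjusted p = 0.00116), and averaged 732 ± 128 FPKM in the eGFP control. Gld, glucose dehydrogenase, averaged 1.84 FPKM in Yki S168A, 7.0 FPKM in Monosiga Yap and 2.24 FPKM in the eGFP control. GstD1 and Gld were chosen after their values were seen. Each value of these groups is given without a test, since the comparison is between Yki S168A and Monosiga Yap.

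**Figure D5:**
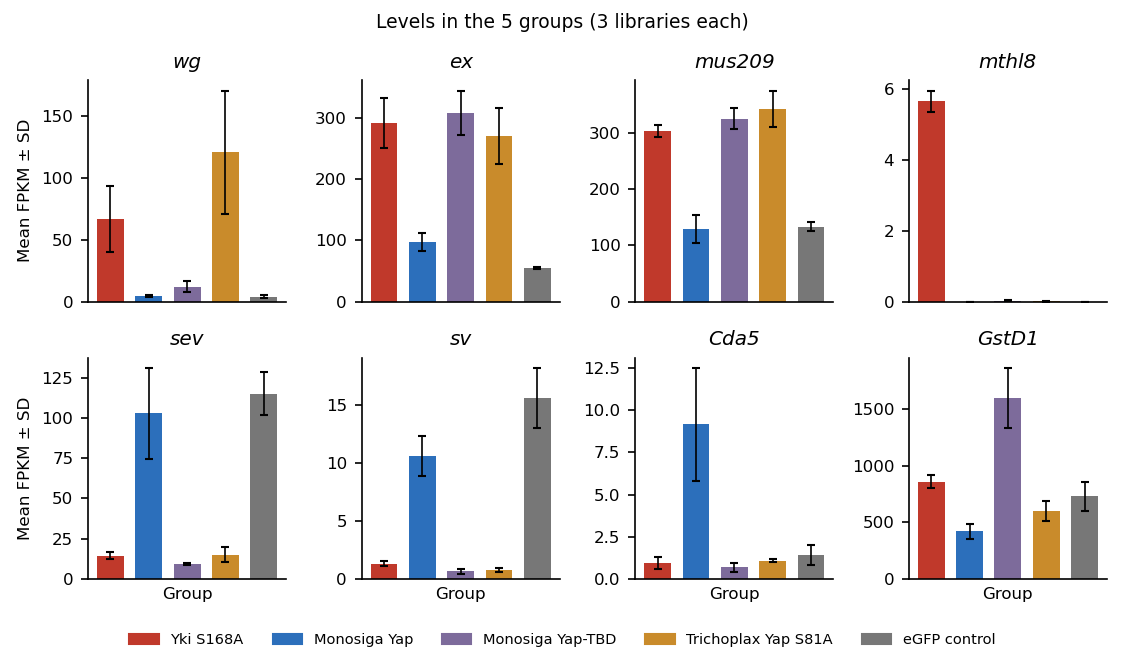
Bars show mean FPKM with SD over 3 libraries in each of the 5 groups, for 8 genes on separate linear axes from 0. Monosiga Yap stands beside the eGFP control for wg, mus209 and sev, and apart from all other groups for Cda5, while mthl8 is above 1 FPKM in Yki S168A alone.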

How the data were processed

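Polyadenylated RNA of 15 eye disc samples in 5 groups was measured by RNA-seq. Build dm3 and the tools TopHat 1.0.14, CASAVA 1.7.0, Cuffdiff 1.0.2 and Cufflinks, the last with no version, stand in the submitters' processing notes. Their roles, the annotation and the strand setting are not given in the sources used here. The authors deposited FPKM values for 14671 genes, and a table of natural log ratios over the control, which was used for symbols, dm3 coordinates and the ratio given for Hsp67Bb (older symbols are kept). Ts, Mcm10 and hth are listed there at 0 for Yki S168A, unlike their FPKM values. Depth was estimated from low FPKM values with current transcript lengths and a length correction of 196 bases.

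Values were taken as log2(FPKM + 1). Genes with FPKM of at least 1 in at least 3 of the 15 libraries were tested. All 5 groups entered one linear model of limma 3.58.1 (R 4.3.3) with trend and robust moderation, so all groups share the estimate of spread, and the contrast Yki S168A minus Monosiga Yap was tested on both sides with Benjamini-Hochberg adjustment over all 9213 genes. The eGFP control entered only that spread and the filter. The procedure was tested on simulated data. Ratios are of mean FPKM. Errors are SD of 3 libraries, or SE where stated. The other steps used python 3.11.15.

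The 24 gene lists came from general knowledge of fly genes. Of the entries of those lists that were written out, 519 of 530 matched, and the cuticle and ribosomal protein lists were matched by symbol. Members and lists were chosen with earlier results of these data known. Lists share some genes. The text names yki, wg, ex, CycE, th, vn, dally, hth, elav, sev and ato, members of the first 5 lists, the 12 genes of largest change per direction whose libraries do not overlap, each with a group mean of 5 FPKM or more and not known by a bare CG or CR identifier, and up to 4 called members per direction of each other list. Other genes were chosen after their values were seen. Alternatives changed the pseudocount, filter, scaling, weights, moderation, block and samples.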

Additional observations from a re-analysis of the deposited data

How the results depend on the processing

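Under 14 of the 17 alternatives the total stayed within 1.5 times of 1075 calls; the exceptions were the fit of the 6 libraries alone, array weights and the omission of Yki S168A replicate 3. With only the 6 libraries in the fit, 479 genes were called (187 higher, 292 lower), 468 of them shared with the 1075. Array weights gave 2503 calls (1402 higher, 1101 lower). Leaving out 1 library gave 670 to 1356 calls, 281 to 791 of them higher and 389 to 565 lower. Without the eGFP control in the fit 917 genes were called. The 2-fold count stayed at 319 to 606. The 6-library fit has fewer samples to estimate spread, and the groups compared spread more than the other groups. The median SD of log2(FPKM + 1) was 0.27 in Monosiga Yap and 0.207 in Yki S168A. It was 0.194 in Monosiga Yap-TBD, 0.191 in Trichoplax Yap S81A and 0.166 in the eGFP control. The main fit shares one estimate over all groups, so its spread for this contrast draws on the less variable groups too. The cause of these moves was not tested. Deviations of same-numbered libraries correlated at -0.19, 0.03 and 0.32. With so few libraries these values cannot settle whether samples were paired or shared a batch. Replicate numbers were not used to pair the samples in the main fit, and a replicate block gave 971 calls. None of the 121 named calls reversed, 83 kept their call wherever they were tested and 38 lost it under at least 1 alternative; the fit of the 6 libraries alone ended 28 of the 119 it tested. Of the 21 named genes that were not called, 11 were called under at least 1 alternative. Depth is an estimate, so no counting interval is given, and genes under 1 FPKM are weakly measured.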

Other observations

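Genes of amino acid uptake and metabolism that stand on no list were also higher in Yki S168A. The 6 genes named here were chosen after their values were seen, so no count of them is a result. mnd, the amino acid transporter Minidiscs, had 69.6, 63.8 and 84.7 FPKM in Yki S168A libraries and 20.7, 31.8 and 20.5 FPKM in Monosiga Yap libraries (limma adjusted p = 0.000432). JhI-21, another amino acid transporter, had 103, 107 and 114 FPKM in Yki S168A libraries and 74.5, 52.4 and 59.7 FPKM in Monosiga Yap libraries (limma adjusted p = 0.00381), and CG1607 averaged 45.3 ± 9.48 FPKM in Yki S168A libraries and 16.2 ± 3.19 FPKM in Monosiga Yap libraries (limma adjusted p = 0.000774). In all 3 genes the groups did not overlap. aay, a phosphoserine phosphatase of serine synthesis, had 47.6, 44.5 and 53.6 FPKM in Yki S168A libraries, 11.2, 21 and 13.5 FPKM in Monosiga Yap libraries and a mean of 27.9 FPKM in the eGFP control, between the groups compared. CG1673, now named Bcat, had 108, 64.9 and 95.3 FPKM in Yki S168A libraries and 22.6, 33.9 and 13.6 FPKM in Monosiga Yap libraries (limma adjusted p = 0.000612). asparagine-synthetase had 40.3, 49.9 and 96.1 FPKM in Yki S168A libraries and 15.9, 14.8 and 17.2 FPKM in Monosiga Yap libraries (limma adjusted p = 0.0382), which became 0.156 without Yki S168A replicate 3 and passed 0.05 in 7 alternatives in all, including the omission of Yki S168A replicate 2 or any Monosiga Yap library.

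The insulin receptor gene InR and the transcription factor gene foxo, which acts against insulin signalling, were both higher. InR had 30.8, 27.0 and 30.5 FPKM in Yki S168A libraries and 11.4, 19.0 and 12.2 FPKM in Monosiga Yap libraries (limma adjusted p = 0.00264). foxo had 35, 29.6 and 28.1 FPKM in Yki S168A libraries and 13.6, 21.1 and 12.7 FPKM in Monosiga Yap libraries (limma adjusted p = 0.00196). Neither gene's libraries overlapped between groups.

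Chitin-related genes went both ways. Gasp, a chitin-binding protein, had 1044, 937 and 853 FPKM in Yki S168A libraries and 351, 474 and 450 FPKM in Monosiga Yap libraries (limma adjusted p = 0.000256), and serp, a chitin deacetylase, averaged 216 ± 30.3 FPKM in Yki S168A libraries and 125 ± 5.35 FPKM in Monosiga Yap libraries (limma adjusted p = 0.00144). obst-A, another chitin-binding protein, was lower, with 82.0, 97.9 and 96.0 FPKM in Yki S168A libraries and 237, 162 and 216 FPKM in Monosiga Yap libraries (limma adjusted p = 0.000219). The chitinase gene Cht7 was lower too, at 7.27, 7.03 and 3.19 FPKM in Yki S168A libraries and 16.7, 23.7 and 17.5 FPKM in Monosiga Yap libraries (limma adjusted p = 0.00341). y, the pigmentation gene yellow, was at 0.507, 0.322 and 1.58 FPKM in Yki S168A libraries and 5.18, 4.19 and 2.13 FPKM in Monosiga Yap libraries, with a mean of 0.0704 FPKM in the eGFP control (limma adjusted p = 0.00588). Its call ended with only the 6 libraries in the fit (limma adjusted p = 0.0659). spz3, a Spätzle-family ligand beside TwdlE, had 78.6, 50.3 and 57.5 FPKM in Yki S168A libraries and 19.0, 23.1 and 10.9 FPKM in Monosiga Yap libraries (limma adjusted p = 0.000412). The gene between TwdlE and spz3, Proct, was under 1 FPKM in all 6 libraries and was not called.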
